A study of Homo sapiens with 12 samples.

Results

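Circular RNAs (circRNAs) were compared between EndoC-βH1 cells exposed to pro-inflammatory cytokines and untreated EndoC-βH1 cells at 48 h. EndoC-βH1 is an established human pancreatic β-cell line, and the study asked which circRNAs respond when such cells meet the cytokines of an inflamed islet. The treated cells received 50 U/mL of interleukin-1β (IL-1β) together with 1000 U/mL of interferon-γ (IFN-γ), and the control cells received no cytokines. The comparison set 3 arrays of treated against 3 of untreated cells, 6 of the 12 arrays of the study. The remaining 6 arrays hold the same conditions at 24 h. They shared in the normalization, the filter and the estimate of the spread. The labels give the treated cells 48 h of culture but an exposure of 24 h, whereas the methods give 48 h for the exposure. The measured features were the 13617 probes of the array whose IDs mark them as circRNA probes, and 10211 of them passed a filter that asked for a spot well above background on 3 or more arrays. The files name these probes by an ID of the maker and pair none of them with a host gene, so the probes are described in groups and 4 of them by ID. The labels do not say whether the 3 arrays of a group came from separate cultures, so the p-values measure the spread between these samples only.

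CircRNAs arise by back-splicing, in which a downstream splice donor is joined to an upstream splice acceptor so that the exons between them form a closed ring. Without free ends they resist RNase R, an exonuclease that digests linear RNA, and the total RNA was treated with it before labelling to enrich the circles. IL-1β acts through its receptor largely on NF-κB, and IFN-γ acts through JAK kinases. In β cells both together induce chemokines, antigen presentation and, with time, loss of function and death.

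Each circRNA probe has 1 spot, and its value was the log2 background-subtracted fluorescence intensity after quantile normalization, called the level below. Between 8735 and 10094 circRNA probes were well above background on each of the 6 arrays, and no circRNA probe was saturated. The median circRNA spot had a signal of 26 to 36 intensity units over a local background of 14 to 16, so many probes lay near background. From array positions and scan dates, untreated array 3 lay on the same slide as the 3 cytokine arrays. Untreated arrays 1 and 2 lay on the slide of the 24 h arrays. Untreated array 3 had the highest median background-subtracted signal of the 6, at 19.8 units, where untreated arrays 1 and 2 had 11.6 and 13.8 and the cytokine arrays 10.5 to 12.7. Over the retained probes, the levels of 2 arrays of the same group correlated with r of 0.945 to 0.965, and those of 2 arrays of different groups with r of 0.931 to 0.954. These correlations run over probes of arrays normalized together and are a description only. Across slides, r was 0.945 for untreated arrays 1 and 3 and 0.961 for untreated arrays 2 and 3, and within a slide it was 0.963 for untreated arrays 1 and 2 and 0.958 to 0.965 for the cytokine arrays.

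Most circRNAs of EndoC-βH1 cells differed little between cytokine-treated and untreated cells, while a small group was clearly higher with cytokines. Of the 10211 retained probes, 100 (0.979%) were differentially expressed (DE), which here means a log2 fold change of 1 or more in either direction with an adjusted p below 0.05 in limma after Benjamini-Hochberg correction. The higher probes numbered 86 (0.842% of those tested) and the lower probes 14 (0.137%). The paper lists several circRNAs of the same host gene among those raised, so counts of probes are not counts of separate genes. The median difference over all retained probes was 0.01 on the log2 scale, with the 1st and 99th percentiles at -1.37 and 1.60. The tails were of like size before the test was applied: 253 probes (2.48%) had a difference of at least 1 and 298 (2.92%) one of -1 or less. At an unadjusted p under 0.05 there were 451 higher probes (4.42%) and 583 lower probes (5.71%). Higher probes outnumbered lower probes among the adjusted calls, but not at these looser thresholds. All 100 DE probes had cytokine arrays that did not overlap with the untreated arrays, as had 21.1% of all retained probes, 10.4% with the cytokine arrays on top and 10.6% with them below.

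**Figure D1:**
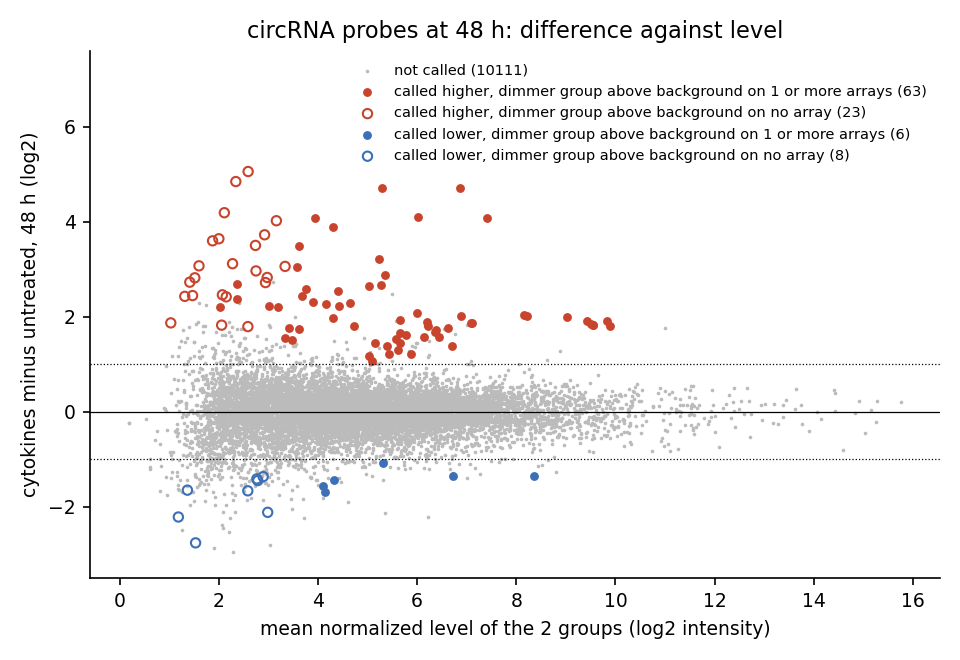
Log2 difference between cytokine-treated and untreated cells at 48 h (vertical axis) against the mean of the group means (horizontal axis, log2 intensity), with 1 point for each of the 10211 retained probes. The 86 probes called higher (red) reach 5.06 and occur at every level, whereas the 14 called lower (blue) reach -2.76, and open circles mark DE probes whose dimmer group was above background on none of its 3 arrays.

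The 86 higher probes had a median fitted log2 fold change of 2.20, from 1.07 to 5.06, with a median standard error (SE) of 0.35. The fitted change was at least 2 on the log2 scale for 48 of them, at least 3 for 20 and at least 4 for 9. These numbers were 38, 11 and 5 when probes with no untreated array above background were set to an approximate lower bound, described below. Their median level was 3.22, 3.30 and 3.41 on untreated arrays 1, 2 and 3. On cytokine arrays 1, 2 and 3 it was 5.81, 5.78 and 5.67. The medians of a group lay close together, but the same arrays took part in choosing these probes. Probe by probe, the cytokine mean exceeded untreated arrays 1, 2 and 3 by medians of 2.50, 1.99 and 1.97. In untreated cells the median level of these probes was 3.32, against 4.61 over all retained probes, and the same untreated arrays took part in choosing them. When the retained probes were divided by mean level into 4 bins of equal number, 28, 16, 20 and 22 higher probes fell in the bins from dimmest to brightest, which is 1.1%, 0.627%, 0.784% and 0.862% of each. The lower probes lay mostly at the dim end, with 8, 3, 1 and 2 in the same bins. The median SE dropped from 0.42 in the dimmest bin to 0.28 in the brightest, so a difference of a given size was measured less precisely for dim probes.

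Probe ASCRP3002713 had the largest rise among the DE probes that were well above background on all 6 arrays. Its level was 5.05, 4.26 and 4.21 on untreated arrays 1, 2 and 3 and 9.59, 8.96 and 9.12 on cytokine arrays 1, 2 and 3. All cytokine arrays lay more than 3 log2 units above all untreated arrays. The group means were 4.51 ± 0.47 (SD, n = 3) and 9.23 ± 0.33 (SD, n = 3), a log2 fold change of 4.72 (SE 0.33, adjusted p = 1.09e-05 from limma), that is 26.3-fold. In background-subtracted intensity before normalization, this spot measured 19.3 to 28.3 units on the untreated arrays and 429 to 714 units on the cytokine arrays. The rise was 5.01 over the untreated array of the same slide and 4.57 over the mean of the 2 untreated arrays of the other slide.

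Probe ASCRP3000517 came next by the same ranking. Its level was 4.42, 3.85 and 3.68 on untreated arrays 1, 2 and 3 and 8.23, 7.84 and 8.14 on cytokine arrays 1, 2 and 3. The cytokine arrays again lay together, far above the untreated arrays. The means were 3.98 ± 0.39 and 8.07 ± 0.21 (SD, n = 3 each), and the log2 fold change was 4.09 (SE 0.28, adjusted p = 1.09e-05 from limma). Its raw spot measured 14.4 to 18.6 units on untreated and 213 to 265 units on cytokine arrays, and it rose by 4.39 within the slide and 3.94 across slides. Both probes stayed DE under every alternative in which they were fitted.

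**Figure D2:**
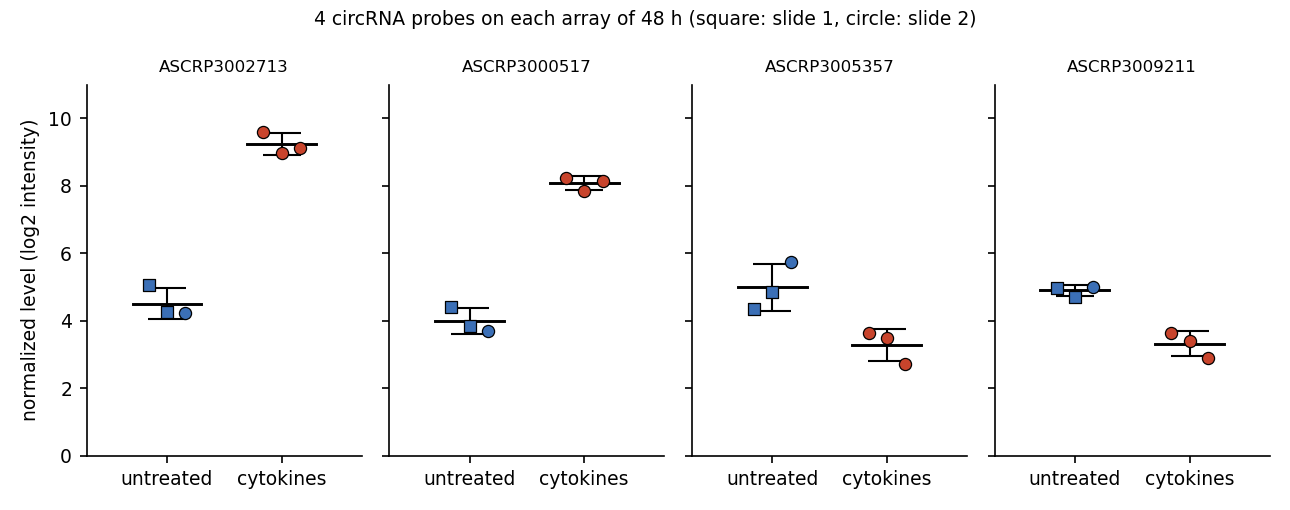
Normalized level (log2 intensity) of 4 circRNA probes on each array of 48 h, untreated in blue and cytokines in red, squares for slide 1 and circles for slide 2, with the mean and SD of 3 arrays as bars. ASCRP3002713 and ASCRP3000517 separate by more than 3 log2 units between the groups, whereas ASCRP3005357 and ASCRP3009211 separate by far less.

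The 14 lower probes changed less, and 2 of them were DE in every fit that left out 1 array of 48 h. Their median fitted log2 fold change was -1.51, from -2.76 to -1.07, with a median SE of 0.31, and the dimmer group of several was not above background (bounds below). Their median level was 3.94, 3.99 and 3.96 on the untreated arrays and 2.20, 2.44 and 2.22 on the cytokine arrays. Only 6 of the 14 were well above background on all 6 arrays, with a median change of -1.40, from -1.70 to -1.07.

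Among these 6, the largest fall was that of ASCRP3005357. Its level was 4.35, 4.86 and 5.75 on untreated arrays 1, 2 and 3 and 3.64, 3.48 and 2.73 on cytokine arrays 1, 2 and 3. The groups did not overlap, but the untreated arrays themselves spread over more than 1 log2 unit, with untreated array 3 at the top. The means were 4.98 ± 0.71 and 3.28 ± 0.48 (SD, n = 3 each), a log2 fold change of -1.70 (SE 0.37, adjusted p = 0.0496 from limma). The difference was -2.46 from the untreated array of the same slide and -1.32 from the mean of the other 2. Its raw spot measured 17.5 to 77.7 units on untreated and 5.09 to 10.8 units on cytokine arrays.

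The level of ASCRP3009211 was 4.97, 4.71 and 5.00 on untreated arrays 1, 2 and 3 and 3.64, 3.41 and 2.91 on cytokine arrays 1, 2 and 3. Here the untreated arrays lay close together and well above the cytokine arrays, at 4.90 ± 0.16 and 3.32 ± 0.37 (SD, n = 3 each). The log2 fold change was -1.58 (SE 0.33, adjusted p = 0.0430 from limma), and it was -1.68 within the slide and -1.52 across slides. Both falls lay just inside the threshold, and ASCRP3009211 missed it without any 1 of the 6 arrays of 48 h, with adjusted p of 0.0827 to 0.186 from limma. ASCRP3005357 missed it without any of them except untreated array 1.

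For many DE probes the dimmer group was not above background, and their fold changes are approximate bounds. Of the 86 higher probes, 47 were well above background on all 6 arrays, and their median rise was 1.85 (1.07 to 4.72), or 3.60-fold. For a further 9 and 7, all cytokine arrays but only 2 or 1 of the untreated arrays were above background. For the other 23, no untreated array was well above background, and for 19 of these all 3 cytokine arrays were. The floor was the lowest normalized signal among probes well above background on each untreated array, or the probe's own level where higher. That lowest signal was 1.67 to 2.48 over the 6 arrays. Against the floor, the 23 probes were 3.28-fold higher at the median, and 17 of them 2-fold or more. It marks the dimmest detected probe and is no strict limit for an undetected spot, so the bounds are approximate. Cytokine arrays not above background entered with their own level. For 1 of the 23 the bound was under 1 and gave no fold. Likewise 8 of the 14 lower probes were above background on no cytokine array. Their bounds reached 3.17-fold lower, with 5 of 2-fold or more and 2 without a fold. With these bounds in place of fitted values, the median was 1.89 for the 86 higher probes and -1.15 for the 14 lower probes.

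Detection in only 1 of the groups was more frequent for untreated cells than for cytokine-treated cells. Of all 13617 circRNA probes, 7967 (58.5%) were well above background on all 6 arrays and 3060 (22.5%) on none. Only 27 probes were well above background in every cytokine-treated sample and in no untreated sample, and 19 of them were DE. The reverse pattern, in every untreated sample and in no treated one, was found for 74 probes, of which 6 were DE. The probes detected with cytokines alone had a median level of 3.48 there and a highest level of 5.17, and those detected in untreated cells alone had a median of 2.91 and a highest level of 4.10. On untreated array 3, 10094 probes were above background, against 8735 to 9263 on the other 5 arrays, and the part of this array in the second count was not tested. With the weaker requirement of a positive and significant signal, 29 probes were detected with cytokines alone and 44 in untreated cells alone.

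The higher DE probes rose against the untreated arrays of either slide, by a median of 1.97 within the slide and 2.27 across slides. The mean of the cytokine arrays exceeded untreated array 3, on their own slide, by a median of 1.97 over the 86 higher probes, and by at least 1 for 85 of them, the lowest value being 0.97. The same median was 2.50 against untreated array 1 and 1.99 against untreated array 2, on the other slide. The difference was larger within the slide than across slides for 35 of the 86 higher and 6 of the 14 lower probes. For the lower probes the medians were -1.55, -1.57 and -1.58 against untreated arrays 1, 2 and 3. All 3 untreated arrays took part in choosing these probes, so the values are a description. Between untreated array 3 and the other 2 untreated arrays, 0 probes were DE in limma, with 430 (4.21%) at an unadjusted p under 0.05, among them 5 of the 100 cytokine DE probes. With a lone array on 1 side, this fit takes its spread from the other arrays and can miss differences between the slides. With the slide as a fixed block in the fit, 19 probes were DE, 18 higher and 1 lower, and 17 of the 86 higher and 0 of the 14 lower probes were among them. In this design the block gives the same calls as setting the cytokine arrays against the lone untreated array of their slide, and so it rests on 1 untreated array in place of 3.

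**Figure D3:**
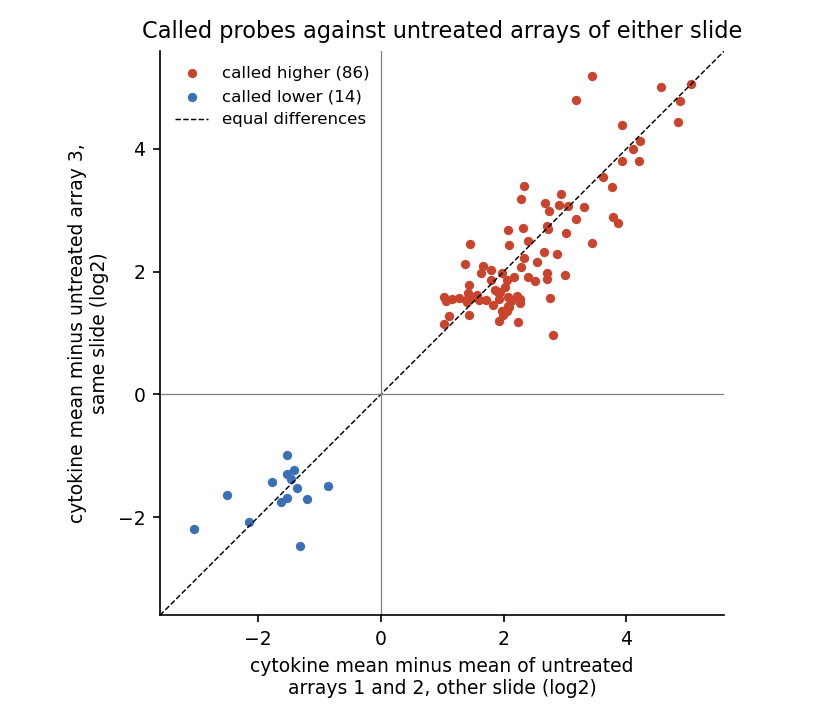
Cytokine mean minus untreated array 3 on the same slide (vertical axis, log2) against cytokine mean minus the mean of untreated arrays 1 and 2 on the other slide (horizontal axis, log2), with 1 point for each of the 100 DE probes. The 86 higher probes (red) lie on both sides of the dashed line of equal differences, with medians of 1.97 within and 2.27 across slides, and the 14 lower probes (blue) are negative on both axes.

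Each array was also left out of the fit in turn, and the probes DE without it were looked up on it. The left-out array had still shared in the normalization and the detection filter, so the values on it are not fully independent of the choice of probes. Without untreated array 3, only untreated arrays of the other slide remained, and 65 probes were DE and higher. On untreated array 3 itself these 65 lay below the cytokine mean by a median of 2.28, where the untreated arrays used for the call gave 2.68, and 58 of them (89.2%) were nearer to the untreated than to the cytokine mean. For any other array left out, 38 to 62 probes were DE and higher, and 96% to 100% of them were nearer to the array's own group. Over all retained probes, 49.9% to 63.2% were nearer to the array's own group, which is the background for these shares. Of the lower probes, 3 of 7 (42.9%) were nearer to their own group on cytokine array 3, 3 of 5 (60%) on cytokine array 2, and 66.7% to 83.3% of 4 to 9 probes on the other arrays. With the deposited log2 values, 29 to 39 probes were DE and higher without an array, and 96.7% to 100% of them were nearer to its own group, 100% of 39 on untreated array 3. The lower probes then numbered 2 to 8, and all of them were nearer to their own group except on untreated array 1, where 4 of 8 (50%) were.

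**Figure D4:**
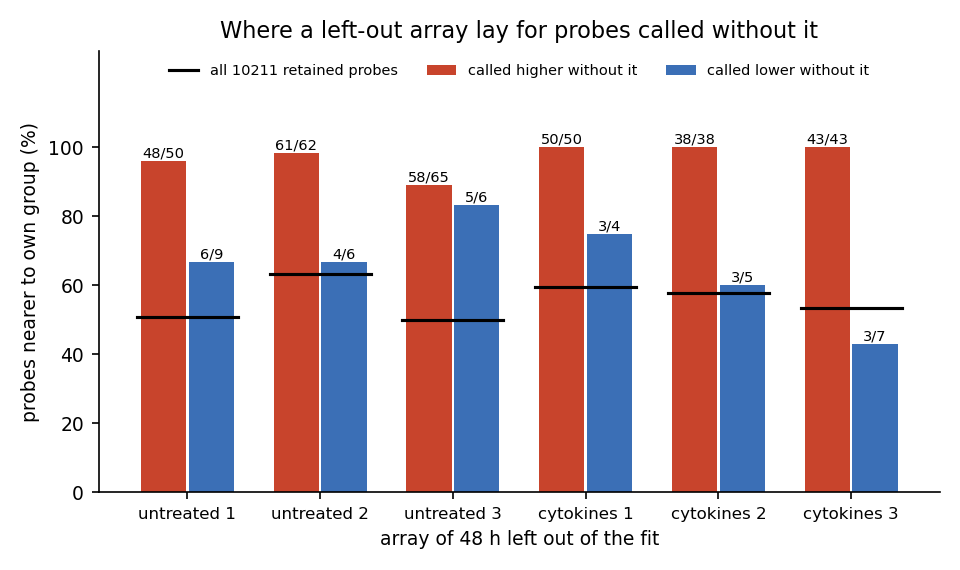
Share of probes (%, vertical axis) that lay nearer to the mean of their own group than to that of the other group on an array of 48 h left out of the fit (horizontal axis), for probes called higher (red) or lower (blue) without that array, with the counts above the bars. Black lines mark the share over all 10211 retained probes, 49.9% to 63.2%, and the red bars stand at 89.2% to 100%. The left-out array had still shared in the normalization and the detection filter.

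The number of DE probes itself depended on every array, from 43 without cytokine array 2 to 71 without untreated array 3. In all 6 of these fits, 35 of the 86 higher and 2 of the 14 lower probes were DE, while 8 higher and 6 lower probes were DE in none of them. These 37 probes had fitted changes from -2.22 to 5.06 with a median of 3.05, and 12 of them were well above background on all 6 arrays. The other settings called 15 of the 37 with the slide as a block and 21 with the log2 values deposited by the authors.

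The same probes were read on the 24 h arrays, which belong to neither 48 h group and all lay on the first slide. These arrays shared in the normalization, the filter and the estimate of the spread that chose the probes. The calls at 24 h are therefore not independent of those at 48 h. In the fit at 24 h, 1.24% of the retained probes were DE. Of the 86 probes higher at 48 h, 85 were also higher at 24 h by value, 77 by at least 1, and 69 were DE, with a median of 2.15. Of the 14 lower probes, 10 had a negative difference at 24 h, 2 of -1 or less, and 1 was DE, with a median of -0.40. Shares by direction or size over all retained probes at 24 h are not given here, so the counts by value are a description. For ASCRP3002713 the change at 24 h was 5.84 (SE 0.33, adjusted p = 1.27e-06 from limma), and for ASCRP3000517 it was 4.18 (SE 0.28, adjusted p = 7.78e-06 from limma). The falls were smaller at 24 h, at -0.35 (adjusted p = 0.611 from limma) for ASCRP3005357 and -0.65 (adjusted p = 0.303 from limma) for ASCRP3009211, and neither was DE. The difference between the time points, tested in limma as an interaction, passed for 0 of the 10211 probes, with 1035 (10.1%) at an unadjusted p under 0.05. Among those 1035 were 4 of the 86 higher and 9 of the 14 lower probes, and the test reuses the 48 h values that chose them. The lowest adjusted p among the lower probes was 0.251 in limma, so a difference between the time points was not shown for any of them.

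The log2 values that the authors deposited gave the same direction for all 100 DE probes and smaller changes. In the same limma fit, 50 probes (0.49%) were DE with them, 48 higher (0.47%) and 2 lower (0.0196%). The 48 probes DE in both readings were 96% of those DE with the deposited values and 48% of those DE with the background-subtracted signal. The median change of the 86 higher probes was 1.06 with the deposited values, and that of the 14 lower probes was -0.56. Of the 47 higher probes detected on all 6 arrays, 36 were also DE with the deposited values, and of the 6 such lower probes, 2. For ASCRP3002713 the deposited values gave 5.42 in untreated and 9.29 in treated cells, a log2 fold change of 3.87 (SE 0.19, adjusted p = 5.17e-07 from limma), and for ASCRP3000517 a log2 fold change of 2.99 (SE 0.15, adjusted p = 5.17e-07 from limma). The change of ASCRP3005357 was -0.86 (adjusted p = 0.0390 from limma) and that of ASCRP3009211 was -0.74 (adjusted p = 0.0596 from limma), both short of the cutoff of 1.

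The array also carries probes for 70 linear mRNAs with 10 spots each, which read what linear RNA, or signal at those probes, was left after RNase R. Of the 69 that could be averaged on every array, 10 were brighter than the brightest of 60 negative-control probes on all 6 arrays of 48 h. Tested in a table with the circRNA probes, in which 0.953% of 10280 probes were DE, 0 of the 69 were DE in limma, with 4 at an unadjusted p under 0.05. Over the 69 probes, 44 differences were positive and 25 negative, with a median of 0.05. Over the 10 detected ones, 9 were positive, with a median of 0.31, which ran from 0.19 to 0.39 when arrays of 48 h were left out, and all 10 were positive with scaling to the 75th percentile or with the slide as a block. The lists were small. The 3 cytoskeletal mRNAs, 2 of them detected, had a median of 0.32 with 2 positive, and of 0.098 without cytokine array 3. The 3 ribosomal protein mRNAs, of which RPLP1 alone was detected on all 6 arrays, had a median of 1.05 with 3 positive, and of 0.064 with 2 positive without cytokine array 3. The 2 mRNAs of glycolysis had a median of 0.20 with 2 positive. No member of a list of antigen presentation and interferon response genes had a linear mRNA probe, nor had any of 18 marker genes of β cells, other islet cells, immune cells and fibroblasts, so the cell label could not be checked here.

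Of the 10 detected mRNAs, 2 were at an unadjusted p under 0.05, among them RPLP1, which encodes a protein of the large ribosomal subunit. The level of RPLP1 was 4.73, 4.03 and 4.12 on untreated arrays 1, 2 and 3 and 5.40, 4.77 and 7.28 on cytokine arrays 1, 2 and 3. The difference was 1.53 (SE 0.50, adjusted p = 0.253 from limma), and it was 0.79 without cytokine array 3, the highest of the 6. For PFN1, an actin-binding protein, the difference was -0.06, and it was 0.058 when scaled to the 75th percentile. For RACK1 of the small ribosomal subunit it was 0.76, and 0.26 without cytokine array 3. For the γ-actin gene ACTG1 it was 0.42, and 0.21 without that array. It was 0.14 for GAPDH of glycolysis and 0.30 for POLR2A, the largest subunit of RNA polymerase II. RHOH gave 0.32, MTX1 of the mitochondrial outer membrane 0.15 and SERPIND1, heparin cofactor II, 0.14. None of these was DE, and all adjusted p-values of the 10 were at least 0.253 in limma.

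Cytokine array 3 stood apart on some of these mRNA probes. It exceeded each of the other 11 arrays of the study by at least 1 log2 unit for RPLP1, RACK1, COX4I1 and RPS18, and the last 2, a subunit of cytochrome c oxidase and a protein of the small ribosomal subunit, were chosen after their values were seen. RPS18 measured 6.39 on it and COX4I1 6.33, and each of these was above the brightest negative control on 1 array of 48 h only, so that no size of the gap is given for them. Among the 86 higher circRNA probes, cytokine array 3 was the highest of the cytokine arrays for 18 and the lowest for 24. The array took part in choosing these probes, so the counts cannot show whether it stood apart on circRNAs. Without it, 50 circRNA probes were DE, 43 higher and 7 lower, of which 46 were among the 100.

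**Figure D5:**
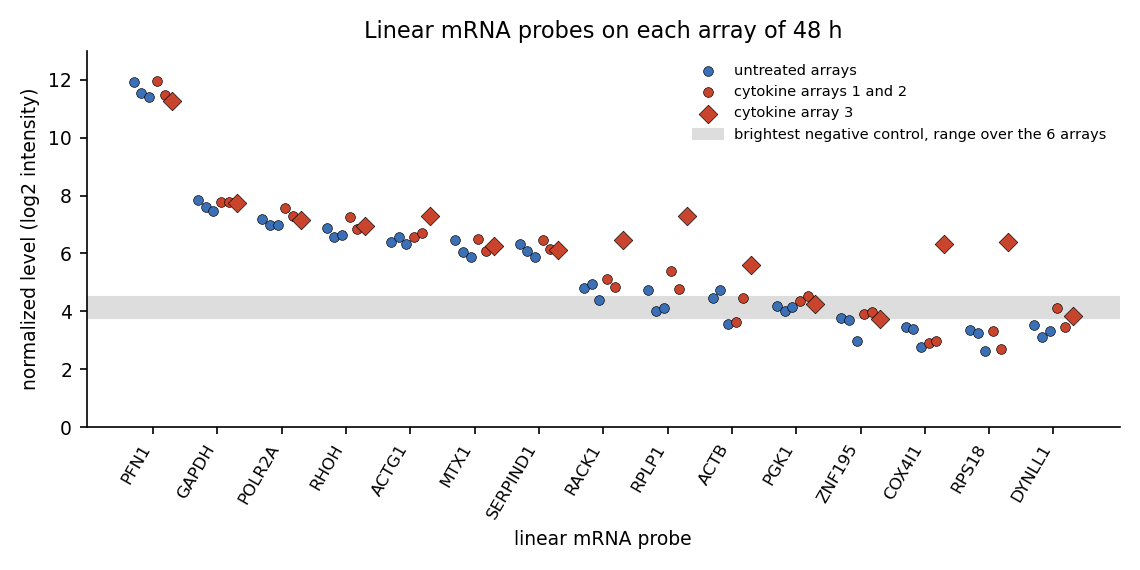
Normalized level (log2 intensity, vertical axis) of 15 linear mRNA probes (horizontal axis) on each array of 48 h, untreated in blue, cytokines in red and cytokine array 3 as diamonds, with the brightest negative-control probe of the arrays as a grey band. The diamonds stand at least 1 log2 unit above all other points for RPLP1, RACK1, COX4I1 and RPS18, and no such gap is seen for PFN1, GAPDH or POLR2A.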

How the data were processed

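The authors digested total RNA of EndoC-βH1 cells with RNase R, labelled it by random priming, hybridized it to one-colour Arraystar Human circRNA Array V2 slides and read the images with Agilent Feature Extraction 11.0.1.1. They deposited, for each array, the fluorescence intensity of every spot before and after background subtraction, with detection flags. A second deposited file holds log2 values normalized by the authors, for which the methods name quantile normalization and limma but not the signal used.

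From the deposited intensities, log2 background-subtracted values of the circRNA probes were brought to equal quantiles over the 12 arrays, and probes well above background on at least 3 of 12 arrays were kept. A mean was fitted for each of 4 groups of 3 arrays by lmFit and eBayes of limma 3.58.1 under R 4.3.3, with the 4 groups sharing the estimate of the spread. The cutoffs for a call were those of the methods, a log2 fold change of 1 or more in either direction and an adjusted p below 0.05 (Benjamini-Hochberg). An exact permutation test of 3 against 3 arrays cannot go below p = 0.1 (two-sided), so none is given. For each linear mRNA probe the uniform spots were averaged, named through their accessions in RefSeq's gene table, normalized with all non-control spots and fitted in a table with the circRNA probes. The slide was inferred from array position and scan date. Named circRNA probes are the 2 largest rises and the 2 largest falls among called probes, ranked by the number of arrays above background and then by size. Named mRNAs are those brighter than the negative controls on all 6 arrays.

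Members, lists and tests were chosen with earlier results of these data known. Alternatives changed the signal, background correction, normalization, filter, slide, replicate block, variance model and arrays. The fit was tested on simulated data. Figures were drawn with matplotlib 3.10.9. The number of arrays and the low signal over background limit the precision. The PCR, islet and proteomics work of the study was not analysed here, and 1 of the 10 detected mRNAs is not reported here.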

Additional observations from a re-analysis of the deposited data

How the results depend on the processing

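Calls at 48 h, 100 in the fit as reported, depended on the signal, the filter and the slide. They numbered 50 with the deposited log2 values, 58 with the signal before background subtraction and 27 with normexp on the median signal (offset 50), which changes the signal and the correction together, with 96%, 96.6% and 96.3% of them higher. They were 59 and 60 when detection on all 12 or on all 6 arrays was required. With the slide as a fixed block, or against the untreated array of the same slide, they were 19 (94.7% higher), by construction on 1 untreated array. Among settings chosen after seeing the data, the block gave 20 with the deposited values (65% higher) and 26 with the signal before subtraction (73.1% higher), the scan run as a block gave 15, and array weights gave 339 (54.9% higher). Fitting only the 6 arrays gave 132 (70.5% higher). Scaling to the 75th percentile, cyclic loess, no filter, the slide as a random block and trend with robust gave 87 to 112. Leaving out each array gave 43 to 122: 59 without untreated array 1, 54, 43 and 50 without cytokine arrays 1, 2 and 3. The interaction gave 0 to 3, with 3 only without untreated 24 h array 3, and probes detected in untreated cells alone numbered 44 with the positive-and-significant flag. For PFN1, -0.06 turned to 0.058 with the 75th percentile and 0.16 with the slide block, and it ran from -0.25 to 0.10 when arrays were left out, above 0 without untreated array 1 (0.088) or cytokine array 3. The causes of these shifts were not tested. Same-numbered arrays did not regularly deviate together (r of -0.34 to 0.33 over 18 pairs, 6 above 0.1), so they were not treated as pairs. For the 3 pairs of 48 h, r was -0.03 to 0.33, and the highest was that of untreated array 1 with cytokine array 1. With a replicate block the count was 98, of which 84 were among the 100. In the fit of the 6 arrays with this block it was 59, of which 46 were among the 100. The named rises kept their calls in all 16 alternatives in which they were fitted, and the named falls lost theirs in 25 of 32 fits.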

Other observations

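The array carries 15 circRNA control probes with several spots each, which belong to no comparison above. Between cytokine-treated and untreated cells at 48 h their log2 levels differed by -0.69 to 0.51, with a median of 0.08, and none differed by 1 or more.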
